A study of Sus scrofa with 9 samples.

Results

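F-box proteins are the part of SCF ubiquitin ligases that picks the target. In such a ligase the cullin CUL1 holds the RING protein RBX1 at one end and the adaptor SKP1 at the other, the F-box protein docks on SKP1 by its F-box, and the rest of the protein binds the substrate that is to be ubiquitinated. The family is divided by what follows the F-box, which is leucine-rich repeats in FBXL proteins, WD40 repeats in FBXW proteins and other or no known domains in FBXO proteins. FBXO32, also known as atrogin-1 or MAFbx, is best known as a muscle ligase that is induced during atrophy, and FBXL21 acts on the cryptochromes of the circadian clock.

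The genes described here were all those whose symbol is FBXO, FBXL or FBXW followed by a number. There were 60 of them among the 18933 genes of the Obese-MSC and Lean-MSC table and 60 among the 18992 genes of the table of vitamin-C-treated and untreated Obese-MSCs, made up of 18 FBXL, 6 FBXW and 36 FBXO genes on 16 chromosomes. FBXO32 and FBXL21 were selected on their measured 5hmC in these same libraries, FBXO32 in both comparisons and FBXL21 between Obese-MSCs and Lean-MSCs. Their values there are given as a description with no further test, and meeting the study's criteria there is no separate support.

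MSCs were grown from subcutaneous abdominal fat of female domestic pigs that were fed, from the age of 3 months, for 16 weeks either standard chow, giving Lean-MSCs, or a diet rich in fat and fructose, giving Obese-MSCs. A portion of the Obese-MSCs received vitamin-C in culture (50 µg/mL, 48 h), and each of the 3 groups had 3 libraries. The libraries were made by hMeDIP-seq, in which DNA fragments with 5-hydroxymethylcytosine (5hmC, an oxidised form of methylated cytosine made by TET enzymes) are pulled down with an antibody and sequenced, so every value below is 5hmC over the exons of a gene and not expression. The values are the authors' normalized counts, the 2 tables were normalized separately, and the untreated Obese libraries stand in both, at values 1.10 to 1.13 times as high in the second table as in the first (median over the F-box genes). Levels are compared between libraries and not between genes, because exon lengths were not used here.

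Summed over all genes, a library held 494566 to 522269 normalized counts in the first table, and 547242 to 593846 in the second. The F-box genes took 0.355% to 0.381% of that sum in the first table, and 0.375% to 0.386% in the second. The labels name no batch. Of the genes that define MSCs (NT5E, THY1 and ENG), 3 of 3 carried 5hmC, but so did 3 of 3 defining genes of endothelium, adipocytes and skeletal muscle and 3 of 3 that MSCs should lack, with no gene at 0 and none meeting the study's criteria, so that exonic 5hmC does not check the cell type. The summed level of the MSC genes ran from 94.8 to 123.4 in Obese-MSCs and from 80.1 to 88.4 in Lean-MSCs, and that of the skeletal muscle genes ACTA1, MYH1 and CKM from 29.4 to 32.8 and from 21.8 to 35.8, and their part in the results was not tested.

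FBXO32 carried more exonic 5hmC in Obese-MSCs than in Lean-MSCs and less in Obese-MSCs given vitamin-C than in those left untreated, which is the pattern it was selected on. The gene lies on chromosome 4 of Sscrofa11.1, at chr4:15895875-15925929. Its 5hmC level was 28.7, 31.3 and 30.6 normalized counts in untreated Obese libraries 1, 2 and 3 and 18.1, 14.9 and 19.5 in Lean libraries 7, 8 and 9. The groups did not overlap, and the lowest Obese library stood well above the highest Lean library. The means were 30.2 ± 1.37 and 17.5 ± 2.36 (SD, n = 3), a ratio of 1.73 and a log2 ratio of 0.79, which 135 of the 9467 genes in the upper 50% by mean reached or passed. The SD of the Obese libraries was below the square root of their mean, 5.49, which is the spread that counting alone gives where 1 normalized count stands for 1 read. That could be shown for Obese library 2 but not for libraries 1 and 3, so the square root is a rough guide here.

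In the second table FBXO32 stood at 18.1, 29.8 and 16.0 normalized counts in treated libraries 4, 5 and 6, against 31.9, 35.4 and 33.7 in untreated libraries 1, 2 and 3. All 3 treated libraries were below all 3 untreated libraries, but treated library 5 lay close under them while libraries 4 and 6 were far lower. The means were 21.3 ± 7.43 and 33.7 ± 1.73 (SD, n = 3), a ratio of 0.633 and a log2 ratio of −0.66, which 43 of the 9496 genes in the upper 50% by mean reached or went below.

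FBXO32 met the study's criteria in both tables. These criteria ask for a p of 0.05 or less in a two-sided test with equal variances on the normalized counts, together with group means whose ratio is 1.4 or more, or 0.7 or less. Between Obese-MSCs and Lean-MSCs it met them with any 1 of the 6 libraries left out, and the log2 ratio then ran from 0.68 to 0.87. Because these libraries selected FBXO32, this describes its values and is no separate support. Under vitamin-C it met them in 1 of 6 such settings, without treated library 5, and did not without treated library 4 or 6 or any untreated library, with log2 ratios from −0.98 to −0.49. With all libraries it also missed them when the test was made on log2(value + 1).

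FBXL21 had the highest Obese to Lean ratio of the family, and between treated and untreated Obese-MSCs its libraries overlapped. The vitamin-C contrast did not select FBXL21, but it holds the same untreated Obese libraries as the contrast that did. The gene lies on chromosome 2 at chr2:138097009-138108284. In the first table it stood at 103.6, 63.3 and 118.4 normalized counts in Obese libraries 1, 2 and 3 and at 36.1, 31.8 and 30.8 in Lean libraries 7, 8 and 9. The Lean libraries were close together, and the Obese libraries were all far higher but unlike each other, with library 2 the lowest. The means were 95.1 ± 28.5 and 32.9 ± 2.81 (SD, n = 3), a log2 ratio of 1.53, and 4 of the 9467 genes in the upper 50% by mean, FBXL21 among them, had a ratio as high. The study's criteria were met with all libraries and in 2 of 6 settings with 1 library left out. They were missed without Obese library 1 or Lean library 7, 8 or 9, and the log2 ratio ran from 1.34 to 1.75 over the 6 settings. These libraries selected FBXL21, so this too is only a description.

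In the second table FBXL21 stood at 110.6, 56.3 and 99.4 normalized counts in treated libraries 4, 5 and 6 and at 115.0, 72.0 and 130.2 in untreated libraries 1, 2 and 3. Each group had 1 low library, treated library 5 and untreated library 2, and the others lay near each other. The means were 88.8 ± 28.7 and 105.7 ± 30.2 (SD, n = 3), a log2 ratio of −0.25 with overlapping groups (two-sided unpaired exact permutation test, p = 0.5, where the smallest p that 3 against 3 libraries allow is 0.1). The untreated libraries are those whose high values selected FBXL21 against Lean-MSCs. Neither this p nor the sign of the ratio is therefore read as an effect of vitamin-C.

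**Figure D1:**
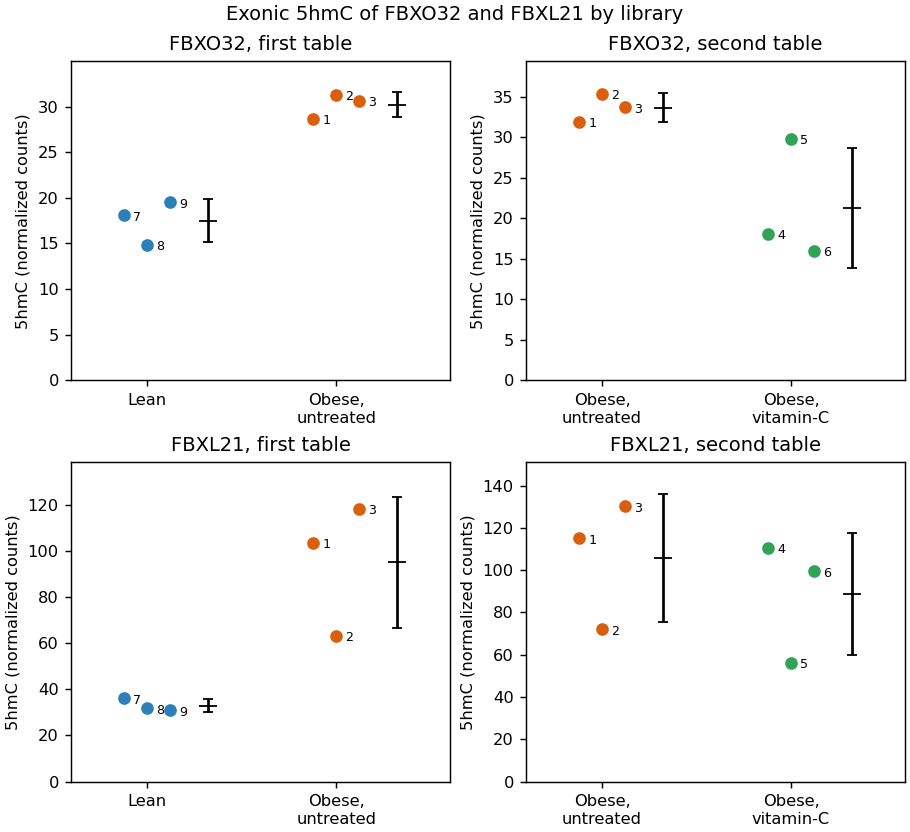
Exonic 5hmC of FBXO32 (top) and FBXL21 (bottom) in normalized counts (y axis, from 0) for each library of the first table (left, Lean and untreated Obese) and the second table (right, untreated and vitamin-C-treated Obese), with the library number beside each point and the mean ± SD (n = 3) as a bar. FBXO32 runs from 28.7 to 31.3 in Obese against 14.9 to 19.5 in Lean and from 16.0 to 29.8 after vitamin-C, while the treated and untreated libraries of FBXL21 overlap.

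Between Obese-MSCs and Lean-MSCs the F-box genes as a family lay where all genes lay. Their median log2 ratio was 0.05, against 0.01 over all genes, and among the 52 members in the upper 80% of genes by mean it was −0.01, with the middle of the family between −0.26 and 0.33 (quartiles) where all genes ran from −0.26 to 0.26. The ratio was above 0 for 32 members and below 0 for 28. By subfamily the median log2 ratio was 0.07 for FBXL, −0.05 for FBXW and 0.02 for FBXO genes.

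The study's criteria were met by 2 of the 60 members, both higher in Obese-MSCs, and these were FBXL21 and FBXO32, which were selected on it. Among all genes 4.5% met the criteria in either direction, 2.07% as higher and 2.43% as lower, and no member was called lower. Of the other 58 members none met the criteria. The 3 libraries of one group lay wholly above or below those of the other for 10 members (16.7%), against 11.8% of all genes, and for 8 of the 58 members that were not selected (13.8%). In limma on log2(value + 1) no member and none of the 15146 genes tested (0%) reached an adjusted p of 0.05, while 6.81% of all genes had an unadjusted p of 0.05 or less. Leaving out the 2 selected genes, 2 of 50 members (4%) had such a p, FBXL19 and FBXO7, and with FBXL21 and FBXO32, from whose own contrast nothing is read, the count was 4 of 52.

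Placed in the family's order of ratios, FBXL21 was the 1st of the 53 members with a mean above 3 normalized counts in at least 1 group, and FBXO32 was the 3rd. Between them stood FBXO44, a low gene named after its values were seen, with 3.92, 3.80 and 2.44 normalized counts in Obese libraries 1, 2 and 3 and 0.04, 1.99 and 2.05 in Lean libraries 7, 8 and 9. FBXO44 partly overlaps its neighbour FBXO2 on chromosome 6, by 56 bases. FBXO2 was also low, with at most 1.91 normalized counts in Obese libraries and 0 listed in all Lean libraries. How reads of the shared bases were counted is not given in the sources used here, and whether these bases are exonic was not checked. Other members overlap neighbours by more, such as FBXW4 with DPCD by 8410 bases. Next below FBXO32 came FBXL19, with a log2 ratio of 0.74, which met the fold of the criteria but not their p.

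**Figure D2:**
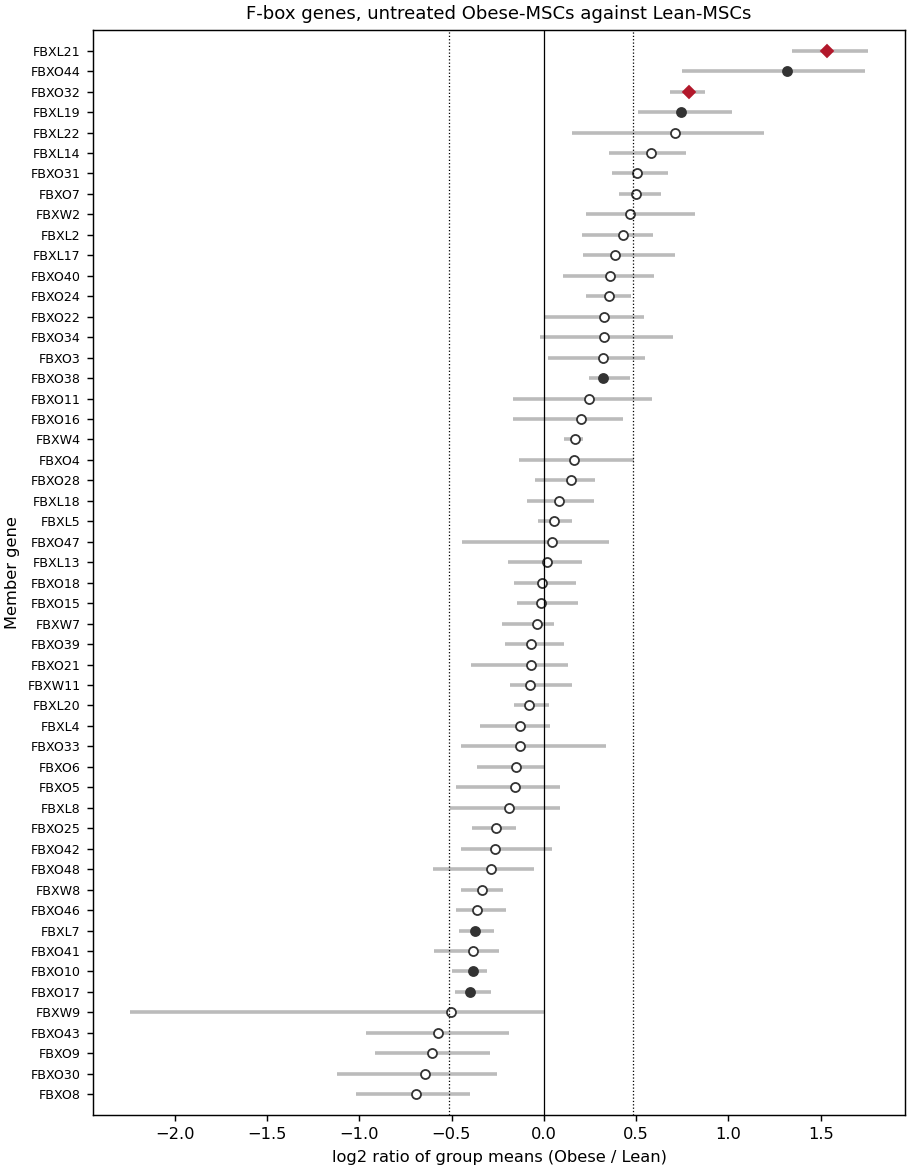
Log2 ratio of group means, untreated Obese over Lean (x axis), for 52 of the 53 F-box genes with a mean above 3 normalized counts in a group, ordered by that ratio (y axis). Grey bars give the range with 1 library left out, filled symbols have groups that do not overlap, red diamonds meet the study's criteria and dotted lines mark ratios of 1.4 and 0.7. FBXL21 (1.53) and FBXO32 (0.79) are the only red symbols, and most members scatter on both sides of 0.

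Among the FBXL genes that were not selected, FBXL19 had the clearest difference. FBXL19 carries a CXXC zinc finger of the kind that binds unmethylated CpG. Its 5hmC level was 36.2, 22.7 and 24.9 normalized counts in Obese libraries 1, 2 and 3 and 13.7, 13.9 and 22.5 in Lean libraries 7, 8 and 9. The groups did not overlap, but the lowest Obese and the highest Lean library were almost level. The means of 27.9 ± 7.27 and 16.7 ± 5.05 (SD, n = 3) differed with a limma p of 0.031, which was 0.704 after Benjamini-Hochberg adjustment over all genes tested, and with p = 0.1 in the exact permutation test, the smallest it can give. After vitamin-C FBXL19 was at 31.6 ± 10.7 against 31.1 ± 7.75, a log2 ratio of 0.03.

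The other FBXL genes overlapped between Obese-MSCs and Lean-MSCs in most cases. FBXL22, which encodes a sarcomere protein of heart muscle, had a log2 ratio of 0.71 with Obese libraries from 7.56 to 30.5 and Lean libraries from 8.07 to 17.9, so that the groups overlapped (exact permutation p = 0.7). FBXL5, the iron-sensing subunit that controls iron regulatory proteins, was level at 30.1 ± 3.25 and 28.9 ± 3.38. Lower values in all Obese libraries were found for FBXL7, which acts on Aurora A and is named after its values were seen, with 29.7 ± 3.98 against 38.5 ± 4.21 normalized counts, a log2 ratio of −0.37 (exact permutation p = 0.1).

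The 6 FBXW genes, which include the best known tumour suppressor of the family, showed no member with groups apart in the first table. FBXW7 targets MYC, NOTCH and cyclin E and had means of 54.9 ± 11.7 (Obese-MSCs) and 56.3 ± 3.07 normalized counts (Lean-MSCs). FBXW11, one of the β-TrCP proteins that recognise phosphorylated β-catenin and IκB, stood at 43.9 ± 4.35 and 46.1 ± 11.7. Their log2 ratios of −0.04 and −0.07 were far smaller than the spread of the libraries, with exact permutation p of 1 and 0.9.

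The relative of FBXO32 did not share its place. FBXO25, the closest paralogue, stood at 42.6, 40.7 and 53.9 normalized counts in Obese libraries 1, 2 and 3 and 52.1, 62.6 and 49.3 in Lean libraries 7, 8 and 9, a log2 ratio of −0.26 with overlapping groups (exact permutation p = 0.3). FBXO30, known as MUSA1, is another F-box protein of muscle wasting, and its log2 ratio of −0.64 was the lowest among the 38 members in the upper 50% of genes by mean. Its Obese libraries were at 34.2, 17.0 and 14.5 and its Lean libraries at 28.4, 23.8 and 50.2 normalized counts, so that the highest Obese library stood above 2 of the Lean libraries (exact permutation p = 0.3).

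Of the remaining FBXO genes, FBXO7 was higher in Obese-MSCs by the unadjusted limma test alone. FBXO7 binds the proteasome regulator PI31 and is mutated in a form of parkinsonism. It stood at 95.9, 89.1 and 70.9 normalized counts in Obese libraries and at 71.0, 56.6 and 53.4 in Lean libraries, so that the lowest Obese and the highest Lean library were level, and the means of 85.3 ± 12.9 and 60.3 ± 9.37 (SD, n = 3) gave a limma p of 0.041 and an adjusted p of 0.708 (exact permutation p = 0.2). FBXO31, which acts on cyclin D1, had a ratio of 1.42, and FBXO7 one of 1.41, both just past the fold of the criteria without meeting their p. FBXO11, which acts on BCL6, was low and spread, at 7.46 ± 2.49 and 6.29 ± 3.68.

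On the low side, FBXO17 had Obese libraries at 28.6, 34.2 and 30.6 normalized counts and Lean libraries at 36.3, 39.7 and 47.2. The groups did not overlap, the log2 ratio was −0.40 and the exact permutation p was 0.1, but the ratio of 0.758 did not reach the 0.7 of the criteria. FBXO9, an adaptor in growth factor signalling, had a log2 ratio of −0.61 with overlapping libraries, 13.2 ± 4.57 against 20.1 ± 6.85. FBXO38 and FBXO10, named after their values were seen, also had groups apart, FBXO38 higher at 15.3 ± 0.192 against 12.3 ± 2.02 and FBXO10, which acts on BCL2, lower at 9.37 ± 0.823 against 12.2 ± 1.72. The remaining member with groups apart was FBXL16, with under 2.3 normalized counts in every library.

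Under vitamin-C the family again lay near all genes. The median log2 ratio of the F-box genes was 0.04, against 0.01 over all genes, and among the 52 members in the upper 80% by mean it was 0.03, with quartiles at −0.10 and 0.21 where all genes had −0.17 and 0.18. The ratio was above 0 for 35 members and below 0 for 25, and the subfamily medians were 0.12 for FBXL, 0.04 for FBXW and 0.01 for FBXO genes.

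FBXO32 was the 1 member of 60 that met the study's criteria, as lower, where 1.92% of all genes did in either direction, 0.806% as lower and 1.11% as higher. None of the 58 members that were not selected met them. The groups did not overlap for 6 members (10.0%), against 5.91% of all genes, and for 5 of the 58 that were not selected (8.62%). In limma no member and none of the 15194 genes tested (0%) reached an adjusted p of 0.05, and 0.974% of all genes had an unadjusted p of 0.05 or less. Leaving out the 2 selected genes, 1 of 50 members (2%), FBXO3, had such a p, and with FBXO32, from whose own contrast nothing is read, the count was 2 of 52. In the order of ratios FBXO32 was 55th and FBXL21 49th of 56 members.

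**Figure D3:**
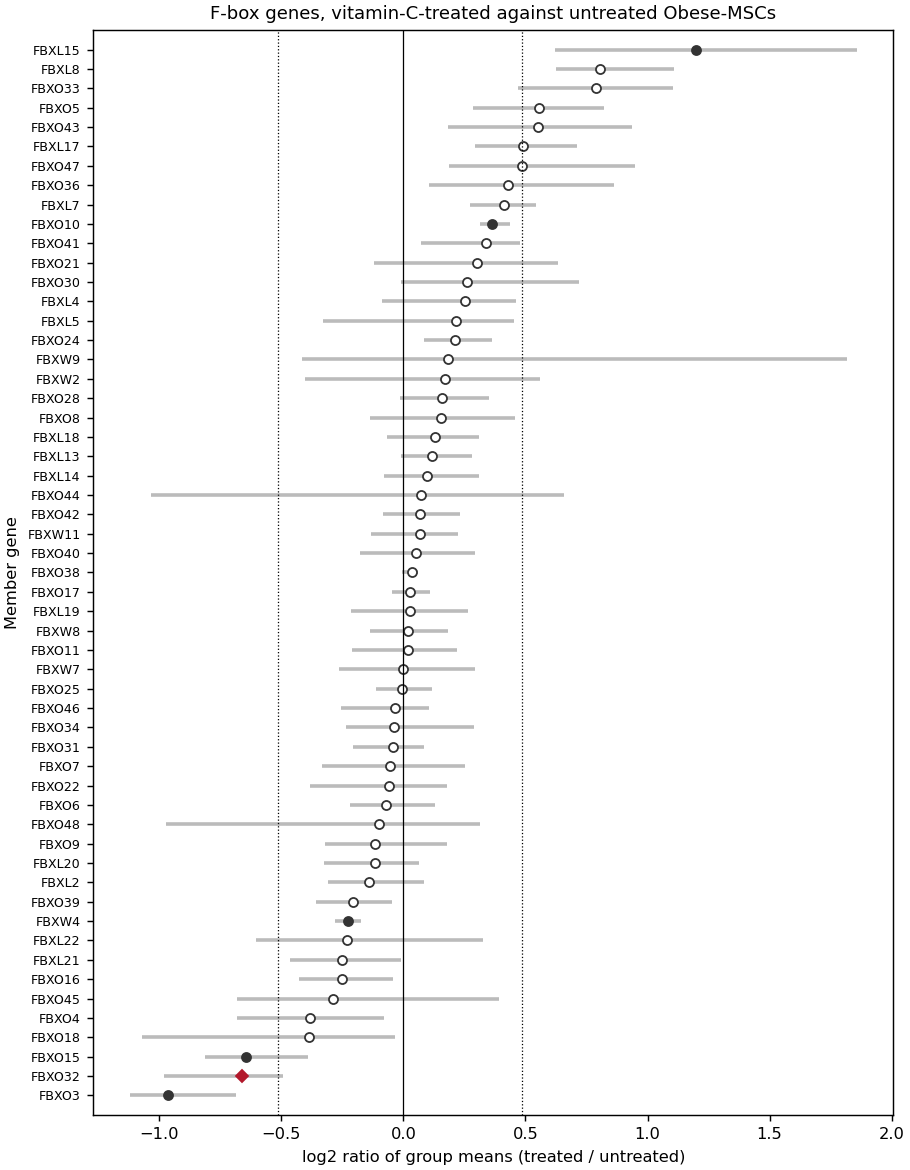
Log2 ratio of group means, vitamin-C-treated over untreated Obese (x axis), for 55 of the 56 F-box genes with a mean above 3 normalized counts in a group, ordered by that ratio (y axis), drawn as in the plot of the Obese and Lean ratios. FBXO32 (−0.66) is the only red symbol, next to FBXO3 (−0.96) at the low end, and FBXL21 (−0.25) has overlapping groups.

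The member with the lowest ratio under vitamin-C was FBXO3, whose protein acts on the F-box protein FBXL2. It stood at 6.04, 6.48 and 6.26 normalized counts in treated libraries 4, 5 and 6 and at 9.39, 10.8 and 16.5 in untreated libraries 1, 2 and 3. All treated libraries were lower and nearly level, while the untreated libraries were spread, with library 3 the highest. The means of 6.26 ± 0.222 and 12.2 ± 3.75 (SD, n = 3) gave a log2 ratio of −0.96, a limma p of 0.045 and an adjusted p of 1.00, with an exact permutation p of 0.1. In the first table FBXO3 was at 10.9 ± 3.59 in Obese-MSCs and 8.75 ± 2.67 in Lean-MSCs, with overlapping libraries.

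A further 4 unselected members, all named after their values were seen, had treated and untreated libraries apart. FBXO15, known as a gene of undifferentiated embryonic stem cells, was lower in all treated libraries, at 12.1, 6.39 and 12.6 against 15.5, 15.0 and 18.0 normalized counts, a log2 ratio of −0.64 just beside FBXO32 in the order. FBXW4 was lower by a small amount, at 246.4 ± 10.1 against 288.5 ± 21.5, a log2 ratio of −0.23. FBXO10 was higher after vitamin-C, at 12.1, 13.9 and 14.3 against 11.3, 9.68 and 10.4, and FBXL15, which acts in BMP signalling, was higher at low values, 4.70 ± 0.909 against 2.04 ± 1.81. Each of these 4 had an exact permutation p of 0.1, the smallest possible. FBXO10 thus had groups apart in both tables, lower in Obese-MSCs and higher after vitamin-C, but the same untreated Obese libraries enter both contrasts.

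**Figure D4:**
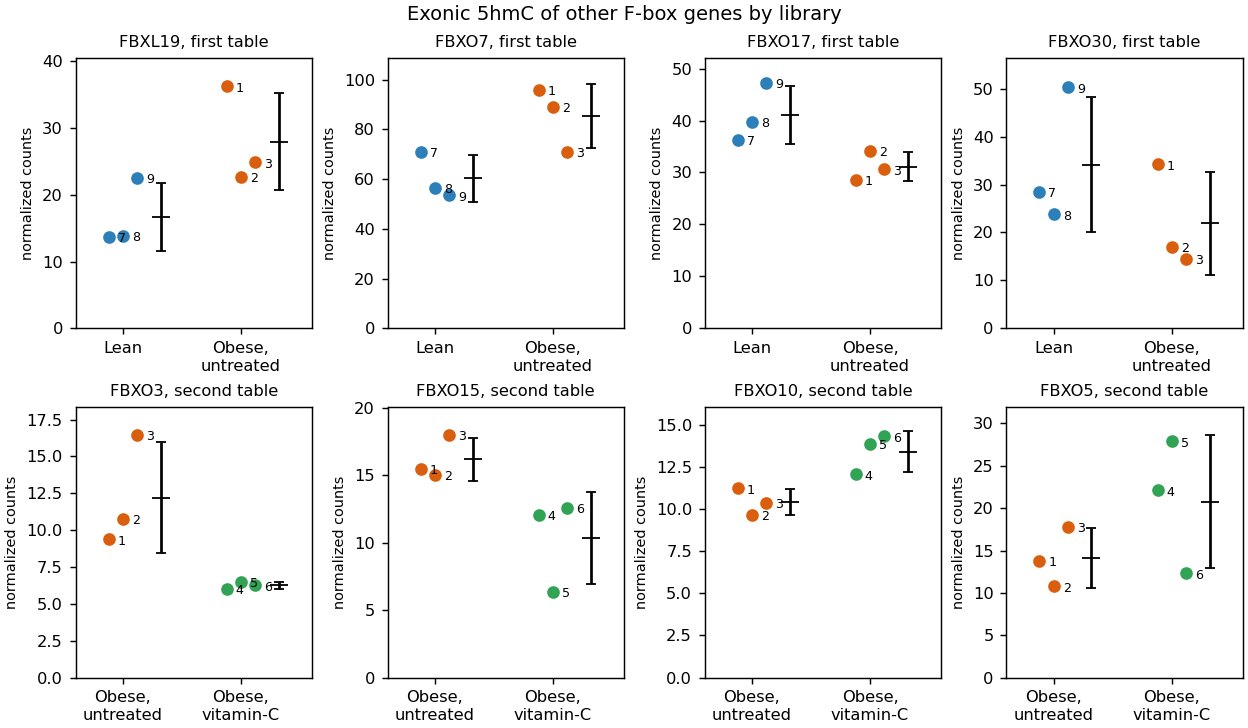
Exonic 5hmC in normalized counts (y axis, from 0) by library for FBXL19, FBXO7, FBXO17 and FBXO30 in the first table (top) and FBXO3, FBXO15, FBXO10 and FBXO5 in the second table (bottom), with library numbers and the mean ± SD (n = 3) as a bar. FBXO3 is level across treated libraries (6.04 to 6.48), and the FBXO7, FBXO30 and FBXO5 groups overlap.

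Among members in the upper 50% by mean, the 3 highest ratios under vitamin-C were those of FBXO5, FBXL17 and FBXO47. FBXO5, or EMI1, holds back the anaphase-promoting complex, and it stood at 22.1, 27.9 and 12.3 normalized counts in treated libraries and at 13.8, 10.8 and 17.8 in untreated ones. FBXL17, which removes wrongly paired BTB proteins, was at 16.5 ± 4.91 against 11.7 ± 1.99, and FBXO47, a gene of meiosis, was at 26.3 ± 1.41 against 18.8 ± 9.54. Their log2 ratios were 0.56, 0.49 and 0.49, and the libraries overlapped for all 3 (exact permutation p = 0.3, 0.3 and 0.4). At the low end FBXO4, which acts on cyclin D1, had a log2 ratio of −0.38 with widely spread libraries, 23.1 ± 9.38 against 30.1 ± 12.6.

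FBXL22 was next to FBXL21 in this order, with a log2 ratio of −0.23 and overlapping libraries. FBXO25, the paralogue of FBXO32, was level at 50.8 ± 7.51 against 51.0 ± 7.20 normalized counts. FBXW7, FBXW11, FBXO31, FBXO7 and FBXO11 had log2 ratios between −0.06 and 0.07. FBXL5 was set by 1 library, since treated library 4 was at 63.4 normalized counts and libraries 5 and 6 at 24.8 and 28.5, against 37.2, 33.3 and 30.0 in untreated libraries. Its log2 ratio of 0.22 became −0.33 without treated library 4.

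The spread of members between replicate libraries was similar in the groups, with a somewhat wider spread after vitamin-C. The median coefficient of variation was 21.9% in Obese-MSCs and 23.1% in Lean-MSCs of the first table, and 26.9% in treated and 23.2% in untreated Obese-MSCs of the second. The SD was below the square root of the mean for 28 of 53 and 25 of 52 members with a mean above 3 in the first table and for 29 of 55 in untreated Obese-MSCs of the second, but for 16 of 55 in treated Obese-MSCs. FBXO32 had a coefficient of variation of 4.52% in Obese-MSCs of the first table, and 3 of the 53 members, FBXO38, FBXO39 and FBXO48, all named after their values were seen, had a lower one.

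F-box proteins whose symbols do not begin with FBX were 9 in number, and all 9 were in both tables. In Obese-MSCs 1 of them, SKP2, was called higher by the study's criteria, which 2.07% of all genes were, and none lower, with a median log2 ratio of 0.25 over the 9 against 0.01 over all genes. SKP2 encodes the ligase subunit that removes the cell cycle inhibitor p27. It stood at 18.8, 15.1 and 15.4 normalized counts in Obese libraries 1, 2 and 3 and at 12.3, 6.94 and 7.21 in Lean libraries 7, 8 and 9. All Obese libraries were higher, and the means of 16.4 ± 2.05 and 8.81 ± 3.00 (SD, n = 3) gave a log2 ratio of 0.90, a limma p of 0.020 and an adjusted p of 0.679. With 1 library left out SKP2 met the criteria in 2 of 6 settings, and not without Obese library 1 or 3 or Lean library 8 or 9, with log2 ratios from 0.76 to 1.22. LRRC29, also called FBXL9 and named after its values were seen, had groups apart as well, at 21.5, 11.3 and 11.95 against 6.80, 7.95 and 6.17, a log2 ratio of 1.10 with a limma p of 0.017 and an adjusted p of 0.679, without meeting the criteria. So did KDM2A, also named after its values were seen, at 65.8 ± 2.00 against 51.3 ± 6.22, a log2 ratio of 0.36. Groups were thus apart for 3 of the 9, all higher in Obese-MSCs, against 11.8% of all genes in either direction. After vitamin-C SKP2 was at 20.5 ± 6.90 against 18.3 ± 2.16 with overlapping libraries.

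Under vitamin-C 2 other genes of these 9 met the criteria, 1 in each direction, where 1.92% of all genes met them, and the median log2 ratio was 0.11. KDM2B, a histone lysine demethylase with an F-box, leucine-rich repeats and a CXXC finger, was lower, at 22.1, 19.4 and 22.4 normalized counts in treated libraries 4, 5 and 6 against 30.2, 25.8 and 36.0 in untreated libraries 1, 2 and 3. Enzymes of its class, like the TET enzymes, use iron and 2-oxoglutarate. The means of 21.3 ± 1.66 and 30.7 ± 5.09 (SD, n = 3) gave a log2 ratio of −0.53 and a limma p of 0.101, with an adjusted p of 1.00. ECT2L was higher, at 10.1, 13.9 and 12.5 in treated against 6.003, 5.40 and 8.86 in untreated libraries, a log2 ratio of 0.85, a limma p of 0.055 and an adjusted p of 1.00. With 1 library left out KDM2B met the criteria in 1 of 6 settings, without untreated library 2 (log2 ratios from −0.64 to −0.39 over the 6), and ECT2L in 2 of 6, without treated library 4 or untreated library 3 (0.71 to 1.09). Neither had met the criteria between Obese-MSCs and Lean-MSCs, where their log2 ratios were −0.09 and −0.52.

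**Figure D5:**
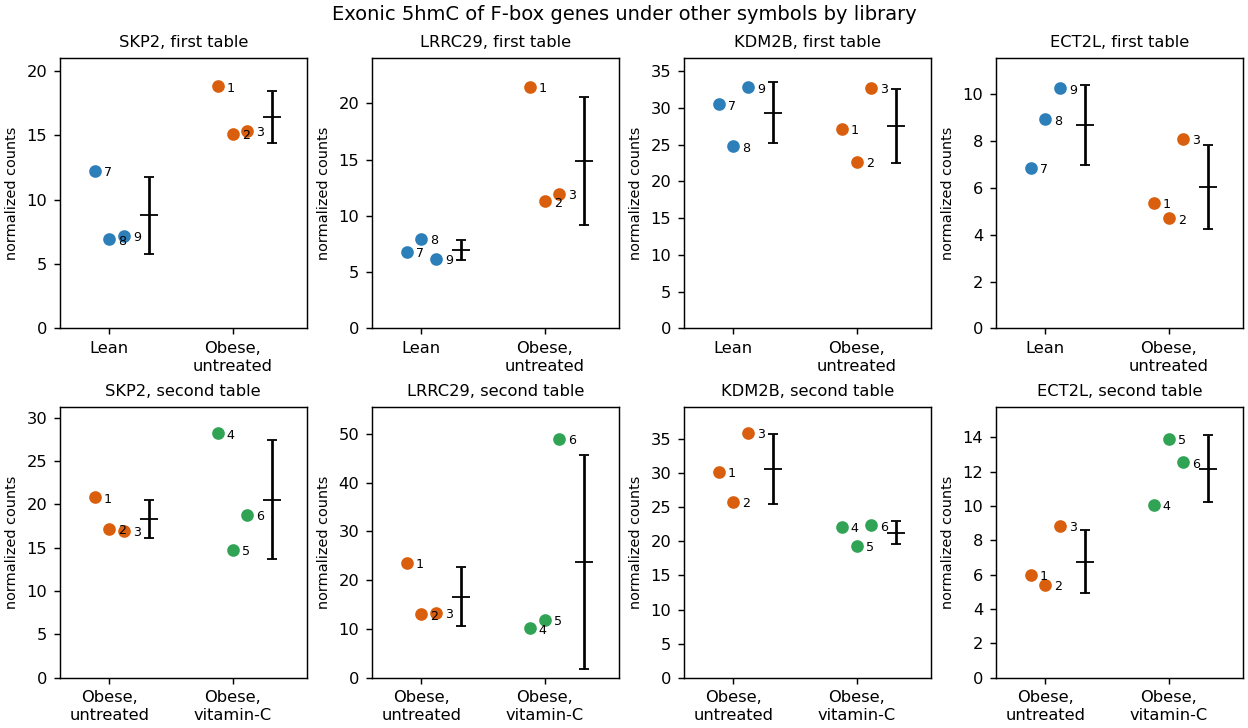
Exonic 5hmC in normalized counts (y axis, from 0) by library for SKP2, LRRC29, KDM2B and ECT2L in the first table (top, Lean and untreated Obese) and the second table (bottom, untreated and vitamin-C-treated Obese), with library numbers and the mean ± SD (n = 3) as a bar. SKP2 is higher in all Obese than in all Lean libraries, and KDM2B is lower (19.4 to 22.4) in all treated than in all untreated libraries.

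Of 31 genes of the SCF core and of the NEDD8 cycle that switches cullins on, 30 were in the tables and none was called higher or lower in either, where 4.5% of all genes were called in the first table and 1.92% in the second. CAND1, COPS2 and COPS3 (3 of the 30), named after their values were seen, were higher in all Obese than in all Lean libraries. Of all genes 11.8% had groups apart in either direction there. COPS2 and COPS3 were low, with Lean means of 1.76 and 1.74 normalized counts. CDC34 (1 of the 30), also named after its values were seen, was higher in all treated than in all untreated libraries, where 5.91% of all genes had groups apart. The median log2 ratio of the 30 was −0.09 between Obese-MSCs and Lean-MSCs and 0.03 under vitamin-C. The genes that act with FBXO32 in muscle atrophy, 10 of 10 in the tables, gave none called in either table, with medians of −0.05 and −0.07. Its usual partner TRIM63 (MuRF1), named after its values were seen, was at 11.98, 6.60 and 6.04 normalized counts in Obese libraries and at 23.4, 12.9 and 11.3 in Lean libraries. Its log2 ratio was −0.95, with 1 Obese library above 1 Lean library, an exact permutation p of 0.2, a limma p of 0.034 and an adjusted p of 0.704. The circadian clock genes around FBXL21 also gave none called in either table, with median log2 ratios of 0.13 and 0.12. Of their 17 listed symbols 15 and 14 were in the tables, and ARNTL and BMAL1 in that list are symbols of the same gene. The cryptochromes CRY1 and CRY2 had log2 ratios of 0.08 and 0.32 between Obese-MSCs and Lean-MSCs, with overlapping libraries.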

How the data were processed

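Per the methods of the study, the authors aligned paired hMeDIP-seq reads to susScr11.1 with Bowtie2 2.3.3.1, removed duplicates with Picard 1.67, counted reads over exons with HTSeq 0.9.1 and normalized with edgeR 3.28.1. The deposited signal is these normalized counts per gene, fractional and never negative. Low values lay on steps of 0.922 to 1.076 (93.5% to 100% of values within 0.1 of a multiple) in 6 of the 12 columns, so 1 normalized count was about 1 read there, but whole reads were not recovered in the others. Numerical residue was set to 0 for 645 values of the vitamin-C table. Strandedness of the counting is not given in the sources used here.

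Each table was analysed alone. The study's criteria (p of 0.05, ratio of at least 1.4 or at most 0.7) were applied to every gene. limma 3.58.1 in R 4.3.3 was run with a variance trend on log2(value + 1) over the 80% of genes with the highest means, p-values were adjusted by Benjamini-Hochberg, and the scripts were tested on simulated data. Log2 ratios are of group means with no pseudocount, given where a group mean was above 3. Single genes got a two-sided exact permutation test (20 arrangements, smallest p 0.1). The study's methods give 3 swine samples per group and do not say which treated library goes with which untreated one. Symbols were matched to RefSeq positions on Sscrofa11.1 for 60 of 60 members. The members and gene lists were chosen with earlier results of these data known. Named members were FBXO32, FBXL21, those meeting the criteria or at an unadjusted limma p of 0.05, the 3 highest and 3 lowest ratios per table in the upper 50% by mean, neighbours in order, FBXO25, FBXW7, FBXW11, FBXL5, FBXO7, FBXO31 and FBXO11, and listed genes meeting the criteria. The values of 1 further member are not reported here. Others are said to be named after their values were seen. Alternatives changed the threshold, scale, variances, pseudocount, filter, normalization and libraries.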

Additional observations from a re-analysis of the deposited data

How the results depend on the processing

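Between Obese-MSCs and Lean-MSCs the members meeting the study's criteria numbered 2, and 1 at a p threshold of 0.01 or with unequal variances. With 1 library left out they numbered from 1 (without Lean library 8) to 4 (without Obese library 2 or 3). Without Lean library 7 or 9 there were 2, 1 higher and 1 lower in Obese-MSCs. Members at an unadjusted limma p of 0.05 numbered 4, and from 2 (without Lean library 8) to 5 (without Obese library 3) with 1 library left out. At an adjusted p of 0.05 there were none, and from 0 to 1 with 1 library left out. The 1 was FBXL21 without Obese library 2, its lowest Obese library, and nothing is read from it because FBXL21 was selected on this contrast. Under vitamin-C the members meeting the criteria numbered 1, 0 at a p threshold of 0.01 or with unequal variances, 3 after quantile normalization (1 higher and 2 lower), and from 0 (without untreated library 2) to 3 with 1 library left out. The 3 were all higher without treated library 4 or 6 and all lower without treated library 5, and there were 2, 1 in each direction, without untreated library 1 or 3. On log2(value + 1) the count stayed at 1, but the member was FBXO3 in place of FBXO32. Members at an unadjusted limma p of 0.05 numbered 2, 1 with no filter on low values, 1 in the upper 50% by mean, and from 0 (without treated library 4 or untreated library 2) to 2 with 1 library left out. No called value changed sign. The log2 ratios of the 20 named members gave 400 values under alternatives, which for members other than FBXO32 and FBXL21 were added after seeing the data, and 1 of them, that of FBXL5 without treated library 4, moved by more than 1 SD. No paired analysis was possible because the groups compared share no replicate numbers and the labels pair no libraries. With 3 libraries a group and a median member level of 14.1 to 19.5 normalized counts per library, differences of the size usual in the family were within the spread of the libraries.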

Other observations

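The protein-coding genes of both tables that lie beside FBXL21 and FBXO32 on the chromosome were taken in order of position after the results were known. They did not meet the study's criteria and had overlapping groups in both tables. LECT2, which starts 1.25 kb after FBXL21 in Sscrofa11.1, had means of 22.2 ± 4.18 in Obese and 16.1 ± 5.94 normalized counts in Lean libraries (SD, n = 3), a log2 ratio of 0.46 where FBXL21 had 1.53. TGFBI, the next of these genes, had a log2 ratio of 0.49. On the other side LOC100738540, 1.69 kb away, had 0.41 at low values, 3.65 ± 2.81 against 2.75 ± 1.97 normalized counts. Beyond it IL9, 44.4 kb from FBXL21, had 0.44. Beside FBXO32, KLHL38 had a log2 ratio of 0.33 with Obese library 2 at 247.0 normalized counts and libraries 1 and 3 at 89.2 and 105.3, and WDYHV1 had 0.83 at values of 6.82 ± 2.02 against 3.84 ± 2.52. Further out, ANXA13 and ATAD2 had log2 ratios of 0.14 and 0.44. No annotated protein-coding gene overlaps FBXO32 or FBXL21, and other kinds of gene were not checked.

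The labels do not say whether the treated and untreated Obese libraries came from the same cultures, but the libraries of the second table were alike in a regular way. Across the 15194 genes in the upper 80% by mean, the deviations of log2(value + 1) from the group mean correlated at r = 0.26 between treated library 4 and untreated library 1, at 0.34 between 5 and 2 and at 0.15 between 6 and 3, while the other 6 pairings ran from −0.22 to −0.03. Across the 52 F-box genes in this range these 3 pairings gave 0.31, 0.36 and 0.11 and the other 6 from −0.35 to 0.08. These are correlations across genes, which are not independent replicates, and deviations within a group of 3 sum to 0. In these pairings FBXL21 was lower in the treated library each time, at 110.6 against 115.0, 56.3 against 72.0 and 99.4 against 130.2 normalized counts. This matching was read from the data and not from the labels, so no test was made from it. The untreated libraries are also those whose high values selected FBXL21, so nothing is read from the direction of these differences.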
